A study of Mus musculus with 12 samples.

Results

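The genes for the respiratory chain and ATP synthase, which together carry out oxidative phosphorylation, were examined in CD11b+ cells isolated from mouse cortex. Members were the protein-coding genes whose symbols begin with Ndufa, Ndufb, Ndufc, Ndufs or Ndufv and a digit, with Uqcr, with Cox4 to Cox8, with Atp5, with mt-Nd, mt-Co, mt-Atp or mt-Cytb, or that are Sdha, Sdhb, Sdhc or Sdhd. A member also needed at least 10 counts in at least 3 libraries. This gave 90 of the 55487 genes in the count table, of which 82 are encoded in the nucleus and 8 in mitochondrial DNA. The 12 libraries came from male mice, with 3 mice in each of 4 groups: WT mice given vehicle (veh, PBS), WT mice given rh Bri2 BRICHOS R221E, and AppNL-G-F mice given either. BRICHOS is a chaperone domain that interferes with amyloid formation, and rh Bri2 BRICHOS R221E is a recombinant human form of it. It was injected intravenously at 10 mg/kg, 24 times over 12 weeks from an age of 9 months, followed by 4 weeks without treatment, and veh was given on the same schedule. The AppNL-G-F mouse carries a humanized amyloid β sequence with the Swedish, Iberian and Arctic mutations in its own App gene, so that App is expressed from its own promoter. WT mice had the C57BL/6J background. The design addresses what the amyloid model and the treatment each do to the RNA of these cells.

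The respiratory chain consists of complexes I to IV in the inner mitochondrial membrane. Complex I (NADH dehydrogenase) and complex II (succinate dehydrogenase) take up electrons, complex III passes them to cytochrome c, and complex IV (cytochrome c oxidase) transfers them to oxygen. Complex V, the ATP synthase, uses the proton gradient to make ATP. Most subunits are encoded in the nucleus and imported, whereas a small set of core subunits of complexes I, III, IV and V is made inside the organelle from mitochondrial DNA. Microglia, the resident macrophages of the brain, are known to shift between oxidative and glycolytic metabolism with their activation state.

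Of the 98 protein-coding genes with a matching symbol, 8 did not reach the count threshold. Among the 13 protein-coding genes of mitochondrial DNA these were mt-Co2, mt-Co3, mt-Atp6, mt-Atp8 and mt-Nd4l, with between 0 and 9 counts in any library and 108 counts in all libraries together. mt-Co1, in contrast, had between 62240 and 111369 counts per library. The nuclear genes under the threshold were Cox7b2, Cox8c and another identifier of Atp5o. The closest members inside the threshold were Cox7a1, which had 10 or more counts in 6 libraries, Cox8b with 8, Cox4i2 with 10 and Ndufa4l2 with 11. The closest gene outside was mt-Co3, with at most 9 counts in a library. Complexes II and V had no mitochondrially encoded member.

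Windows of 50 bases along each transcript were searched for in the annotated transcripts of all other genes (GRCm38). All windows of mt-Co2 were found elsewhere, as were 99.86% of those of mt-Co3, 99.53% of mt-Atp6, 98.79% of mt-Nd4l and 97.99% of mt-Nd3. For these 5 genes the closest copies were unprocessed pseudogenes on chromosome 1, among them Gm28661 at chr1:24614885-24615565 on the minus strand. The pseudogenes were themselves listed with few reads, between 0 and 16 counts per library for each of the 7 compared. The start of mt-Co2 (bases 1 to 60, 5′ to 3′) is shown with the same stretch of Gm28661 because the pair has 0 mismatches, and the start of mt-Nd1 is shown as a gene for which no window had a copy. A mismatch would be printed as a capital.
mt-Co2: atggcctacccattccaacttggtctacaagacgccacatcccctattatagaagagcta
Gm28661: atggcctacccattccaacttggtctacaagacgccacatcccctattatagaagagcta
mt-Nd1: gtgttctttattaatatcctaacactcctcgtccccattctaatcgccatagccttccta
The share was 62.23% for mt-Nd4, 51.14% for mt-Co1, 8.19% for mt-Nd2 and 7.61% for mt-Nd5, and no window was shared for mt-Nd1, mt-Cytb, mt-Nd6 or mt-Atp8. mt-Atp8 had at most 2 counts in a library, and no copy of it was found among annotated transcripts. Sequence outside annotated transcripts was not searched, so a copy lying between the annotated pseudogenes would have been missed. How reads with several matches were counted was not given in the sources used here. Among the nuclear members, 45 of 82 had no shared window, and Atp5l was the only one with more than 50% (68.48%).

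The total count per library was between 12433402 and 17889654. All 8 microglial markers examined had counts in every library, and their summed level was between 24280 and 28260 CPM (counts scaled to a common library size, computed with the TMM normalization factors of edgeR). Markers of other cell types were present as well. The 6 oligodendrocyte markers summed to 4126 to 16800 CPM in WT and to 3143 to 6031 CPM in AppNL-G-F mice, the 7 astrocyte markers to 423 to 769 CPM and 649 to 4472 CPM, and the 6 ependymal and choroid plexus markers to 818 to 6519 CPM and 611 to 1866 CPM. The 5 endothelial markers summed to 446 to 623 CPM in WT and 337 to 526 CPM in AppNL-G-F mice. The 7 neuronal markers summed to 15.3 to 27.7 CPM in WT and 5.21 to 7.55 CPM in AppNL-G-F mice, the 5 neutrophil markers to 32.8 to 408 CPM and 10.7 to 34.4 CPM, the 5 B and T cell markers to 10.8 to 12.3 CPM and 4.98 to 6.84 CPM, and the 4 border macrophage markers to 275 to 443 CPM and 114 to 155 CPM. In single libraries, Camp, Ms4a1, Cd3e or Cd3d of these lists had no counts. In bulk samples, fewer cells of a type and less RNA per cell cannot be told apart.

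The nuclear and the mitochondrial genes differed between strains in opposite directions. In veh-treated WT mice, the nuclear members took 0.420%, 0.428% and 0.440% of all counts, and in veh-treated AppNL-G-F mice 0.535%, 0.523% and 0.487%. The mitochondrial members took 1.48%, 1.58% and 1.45% in veh-treated WT mice and 1.13%, 1.01% and 1.11% in veh-treated AppNL-G-F mice. Every AppNL-G-F library was thus above every WT library for the nuclear sum and below for the mitochondrial sum. In mice given BRICHOS, the nuclear share was 0.446%, 0.465% and 0.482% in WT and 0.516%, 0.515% and 0.491% in AppNL-G-F mice. The mitochondrial share was 1.69%, 1.89% and 1.70% in WT and 1.11%, 1.01% and 0.997% in AppNL-G-F mice, again without overlap.

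The ratio of mitochondrial to nuclear counts, which needs no scaling between libraries, was 3.51 ± 0.206 (SD, n = 3) in veh-treated WT and 3.79 ± 0.266 in BRICHOS-treated WT mice, against 2.11 ± 0.168 in veh-treated and 2.04 ± 0.0957 in BRICHOS-treated AppNL-G-F mice. The lowest WT library was at 3.30 and the highest AppNL-G-F library at 2.27. No test was made on these sums. Marker sums of other cell types also separated the strains. With veh, the astrocyte markers were at 423 to 597 CPM in WT and 1394 to 4472 CPM in AppNL-G-F mice (7 of 7 called higher, edgeR, adjusted p-value under 0.05), the oligodendrocyte markers at 9585 to 16800 CPM and 3143 to 5551 CPM (2 of 6 called lower), and the mural cell markers at 135 to 151 CPM and 182 to 204 CPM (1 of 5 called higher and 1 lower). With BRICHOS, the ependymal and choroid plexus markers were at 3102 to 6519 CPM in WT and 624 to 925 CPM in AppNL-G-F mice (6 of 6 called lower), the endothelial markers at 446 to 623 CPM and 337 to 388 CPM (4 of 5 called lower), and the neutrophil markers at 61.9 to 375 CPM and 10.7 to 31.3 CPM (3 of 5 called lower). Of all tested genes, 20.1% were called higher and 16.9% lower with veh, and 20.8% and 21.8% with BRICHOS. The mural cell calls with veh lay near these shares. The sums of neuronal, border macrophage and B and T cell markers did not overlap between strains in either comparison. With veh, 4 of 5 endothelial and 5 of 5 neutrophil markers were called lower as well, although their sums overlapped. The median log2 fold change of the neutrophil markers was -4.81 with veh. Of the 8 microglial markers, 2 were called higher and 5 lower with veh, and 2 higher and 4 lower with BRICHOS. The part of these markers in the differences between strains was not tested.

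**Figure D1:**
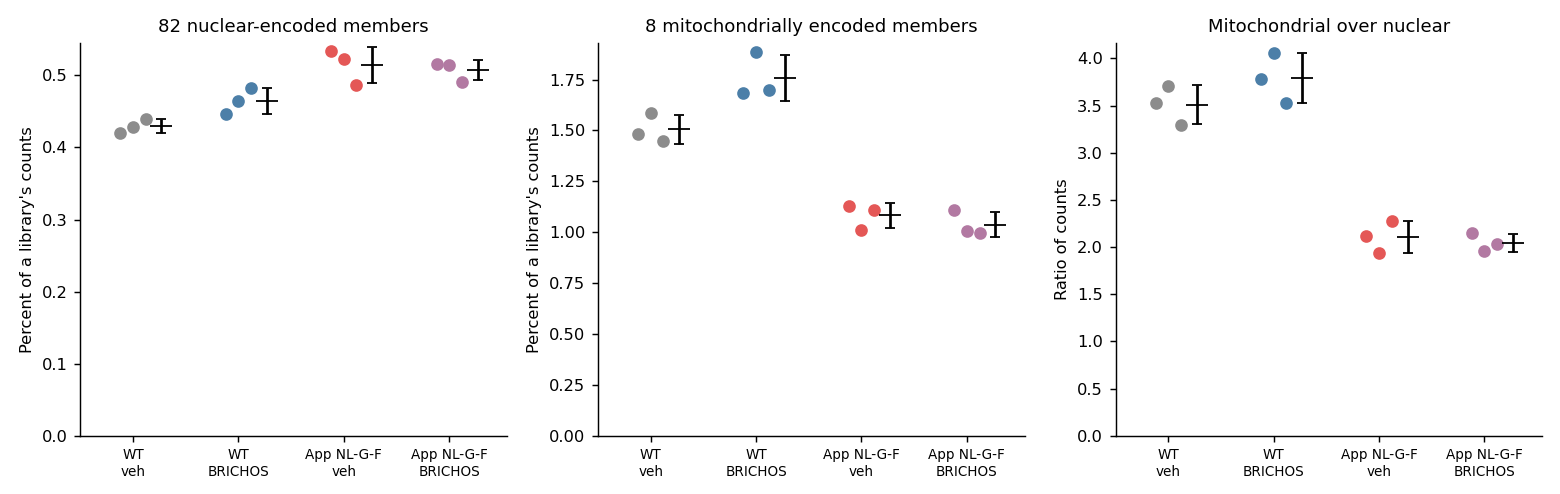
Summed counts of the 82 nuclear and 8 mitochondrially encoded members as a percentage of all counts of a library, and the ratio of the mitochondrial to the nuclear sum, for each of 3 mice per group (points) with mean and SD (black bars). AppNL-G-F mice were above WT mice in the nuclear sum and below them in the mitochondrial sum, with ratios between 1.94 and 2.27 against 3.30 to 4.06.

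Individually, 66 of the 82 nuclear members were higher in veh-treated AppNL-G-F than WT mice and 0 were lower at an adjusted p-value under 0.05 (edgeR quasi-likelihood test, Benjamini-Hochberg over 15425 genes). This was 80.5% of the nuclear members, against 20.1% of all tested genes called higher and 16.9% called lower. The median log2 fold change of the nuclear members was 0.43 and that of all genes -0.02. For 71 nuclear members all AppNL-G-F mice were above all WT mice and for 1 below (86.6% and 1.22%, against 25.5% and 25.3% of all genes). Of the 8 mitochondrial members, 5 were lower and 0 higher, with a median log2 fold change of -0.33. In BRICHOS-treated mice, which share no animal with the first comparison, 61 nuclear members were higher and 3 lower in AppNL-G-F mice (74.4% and 3.66%, against 20.8% and 21.8% of all genes), and 7 of 8 mitochondrial members were lower. Without overlap between mice, 64 nuclear members were higher and 4 lower (78.0% and 4.88%, against 25.3% and 26.4% of all genes). The medians were 0.35 for the nuclear members, -0.60 for the mitochondrial members and -0.04 for all genes. In both comparisons 59 nuclear members were higher (15.1% of all genes were) and 5 mitochondrial members were lower (11.6% of all genes were).

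The size of the difference depended on the scaling. TMM factors were between 1.05 and 1.10 in WT and between 0.875 and 0.952 in AppNL-G-F libraries, and with library totals alone the median of all genes moved to -0.21 in veh-treated and -0.31 in BRICHOS-treated mice. On that scale 48 nuclear members were higher and 1 was lower with veh, and 26 were higher and 10 lower with BRICHOS. The shares of all tested genes called on that scale are not given here, so these counts cannot be set beside them. The nuclear medians of 0.25 and 0.08 lay above the median gene, and the mitochondrial medians of -0.52 and -0.88 below it.

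**Figure D2:**
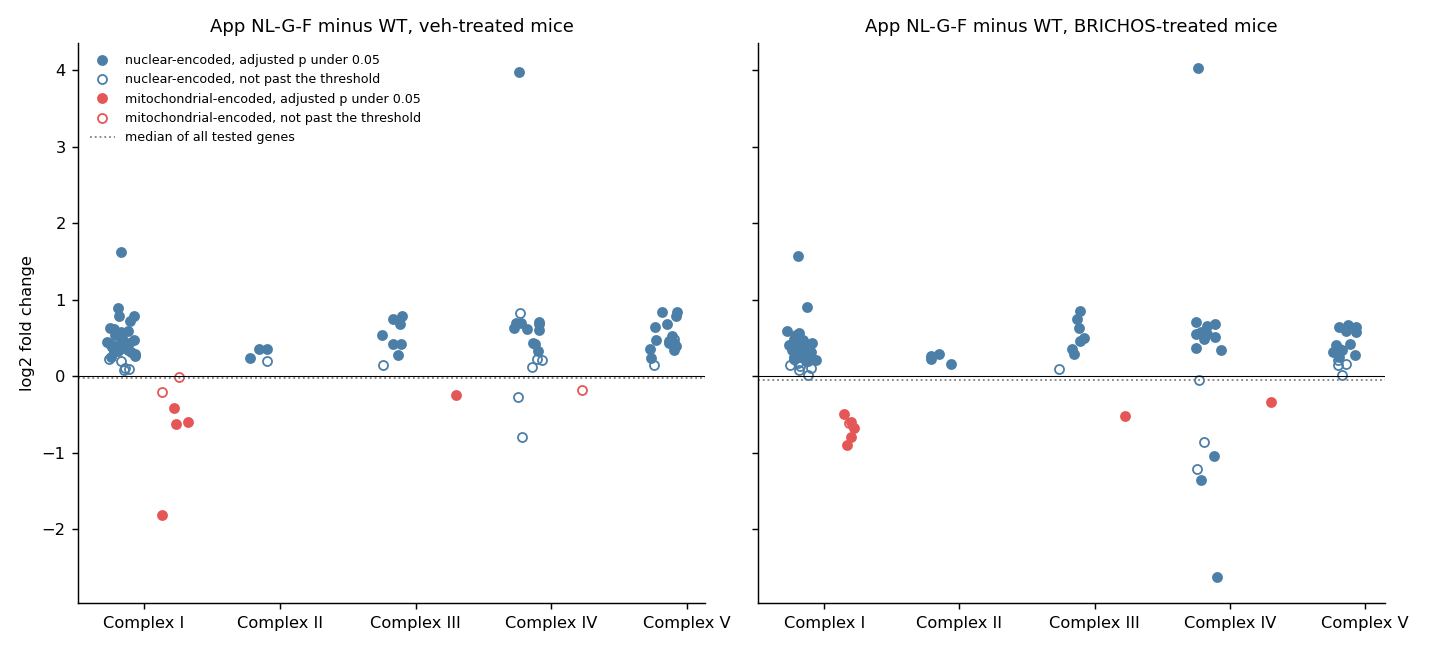
Log2 fold changes of AppNL-G-F over WT mice for the members of complexes I to V, 1 point per gene, in veh-treated (left) and BRICHOS-treated mice (right), from 3 mice per group. Filled points have an adjusted p-value under 0.05, the dotted line is the median of all tested genes, and Cox7a2l and Atp5s, which were not assigned to a complex, are left out. Most nuclear-encoded genes lie above 0, with Cox6a2 at 3.98 and 4.03, and the mitochondrially encoded genes lie below 0.

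In complex I, 30 of the 35 nuclear members were higher in veh-treated AppNL-G-F mice and 26 in BRICHOS-treated AppNL-G-F mice, 25 of them in both, and 0 were lower. The shares higher were 85.7% and 74.3%, against 20.1% and 20.8% of all tested genes, 15.1% in both. Of all tested genes, 16.9% and 21.8% were lower. The median log2 fold changes were 0.40 and 0.31. Ndufa1, an accessory subunit of the membrane arm encoded on the X chromosome (chrX:37187588-37191163, minus strand, GRCm38), had 18.2, 19.6 and 21.1 CPM in veh-treated WT and 61.0, 63.2 and 57.0 CPM in veh-treated AppNL-G-F mice. With BRICHOS it had 18.8, 22.8 and 27.4 CPM in WT and 63.3, 81.7 and 61.0 CPM in AppNL-G-F mice. The strains did not overlap, and the log2 fold change of Ndufa1 was 1.62 ± 0.141 (adjusted p = 4.49e-06) with veh and 1.58 ± 0.139 (adjusted p = 4.51e-06) with BRICHOS, where ± is the standard error.

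Among the other nuclear members of complex I, the accessory subunit Ndufa6 rose by 0.80 ± 0.0909 (adjusted p = 3.9e-05) with veh and by 0.60 with BRICHOS on the log2 scale. Ndufv3, of the NADH-oxidizing module, rose by 0.64 ± 0.0816 (adjusted p = 9.45e-05) and 0.54. With BRICHOS, the accessory subunits Ndufa7 at 0.55 ± 0.0648 (adjusted p = 4.86e-05) and Ndufa2 at 0.91 ± 0.113 (adjusted p = 6.72e-05) had the lowest p-values of the nuclear complex I members after Ndufa1. Ndufs1 and Ndufs8 were not past the threshold in either comparison, with log2 fold changes of 0.10 and 0.08 with veh and 0.02 and 0.15 with BRICHOS. The same applied to Ndufa9 (0.11 and 0.09) and Ndufa11 (0.23 and 0.12).

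Complex II has no mitochondrially encoded subunit. Sdhc, a membrane anchor, was higher in veh-treated AppNL-G-F mice by 0.35 ± 0.0555 (adjusted p = 0.000435), Sdhb, the iron-sulphur subunit, by 0.36 ± 0.0615 (adjusted p = 0.000847), and Sdha, the flavoprotein, by 0.24 ± 0.0411 (adjusted p = 0.000884). Sdhd, the other membrane anchor, was at 0.20 ± 0.0758 (adjusted p = 0.0569). With BRICHOS all 4 were higher (20.8% of all tested genes were), with log2 fold changes between 0.16 and 0.29. Sdha and Sdhb turned to -0.04 and -0.01 with library totals alone in BRICHOS-treated mice, against -0.31 for the median gene.

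In complex III, 7 of 8 nuclear members were higher in both comparisons (15.1% of all tested genes were). Uqcrh, the hinge protein next to cytochrome c1, had 70.8, 75.7 and 71.1 CPM in veh-treated WT and 130.5, 120.1 and 116 CPM in veh-treated AppNL-G-F mice. With BRICHOS it had 69.8, 71.0 and 75.7 CPM in WT and 131, 144 and 116 CPM in AppNL-G-F mice. The strains did not overlap, and the log2 fold changes of Uqcrh were 0.75 ± 0.0766 (adjusted p = 1.57e-05) and 0.85 ± 0.0765 (adjusted p = 5.29e-06). Uqcrfs1, the Rieske iron-sulphur protein, rose by 0.43 and 0.47, and Uqcr11, a small subunit, by 0.69 and 0.63. Uqcrc1, a core protein, was the member not past the threshold, at 0.15 ± 0.0648 (adjusted p = 0.083) and 0.10 ± 0.0646 (adjusted p = 0.245).

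Complex IV held the largest increase and the 3 decreases among nuclear members. Several of its subunits exist as a broadly expressed form and a form known from particular tissues. Cox6a2, the heart and skeletal muscle form of subunit 6A (chr7:128205435-128206387, minus strand), had 2.87, 3.20 and 3.20 CPM in veh-treated WT and 61.7, 38.6 and 46.9 CPM in veh-treated AppNL-G-F mice, from 42 to 54 and 589 to 954 counts. In BRICHOS-treated mice it had 2.77, 4.28 and 2.29 CPM in WT and 45.0, 58.6 and 49.6 CPM in AppNL-G-F mice. The log2 fold change of Cox6a2 was 3.98 ± 0.231 (adjusted p = 1.67e-07), which ranks 66 among the 15425 tested genes, and 4.03 ± 0.228 (adjusted p = 1.24e-07), which ranks 63. No 50-base window of Cox6a2 was shared with another annotated gene.

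Its broadly expressed counterpart Cox6a1 had 93.5, 94.7 and 81.7 CPM in veh-treated WT and 132, 136 and 144 CPM in veh-treated AppNL-G-F mice. It rose by 0.61 ± 0.0725 (adjusted p = 5.29e-05) on the log2 scale with veh and by 0.71 ± 0.0724 (adjusted p = 1.41e-05) with BRICHOS. Per kilobase of exon, Cox6a2 made up 2.56% to 4.72% of the pair in WT libraries and 22.6% to 32.6% in AppNL-G-F libraries. Cox6a1 was the more abundant form in every library on that scale.

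The remaining broadly expressed subunits moved together. Cox4i1 rose by 0.70 ± 0.0682 (adjusted p = 1.05e-05) with veh and 0.66 ± 0.0681 (adjusted p = 1.65e-05) with BRICHOS, and Cox6b1 by 0.69 ± 0.0776 (adjusted p = 3.55e-05) and 0.68 ± 0.0772 (adjusted p = 3.46e-05). Cox5a, Cox5b, Cox6c, Cox7a2, Cox7b, Cox7c and Cox8a were higher in both comparisons, with log2 fold changes between 0.33 and 0.71. Ndufa4, now counted as a complex IV subunit, was at 0.13 ± 0.0959 (adjusted p = 0.315) and -0.04 ± 0.0954 (adjusted p = 0.745). Cox7a2l, a factor that joins complexes III and IV into supercomplexes, rose by 0.50 ± 0.0824 (adjusted p = 0.000651) and 0.71 ± 0.0824 (adjusted p = 4.16e-05). Atp5s, which shares only the symbol prefix, was at 0.23 ± 0.135 (adjusted p = 0.2) and -0.26 ± 0.133 (adjusted p = 0.135).

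The other tissue-restricted forms had low levels. With BRICHOS, 3 of them were lower in AppNL-G-F mice: Ndufa4l2, a form known to be induced by hypoxia, at -1.35 ± 0.328 (adjusted p = 0.00621), Cox8b, a muscle form, at -2.63 ± 0.708 (adjusted p = 0.0111), and Cox6b2, a testis form, at -1.03 ± 0.284 (adjusted p = 0.0122). With veh they were not past the threshold (-0.79, -0.27 and 0.23), and the Cox8b value turned to 0.90 without replicate 3 of veh-treated WT mice. Cox8b had 0.616, 0.296 and 2.23 CPM in veh-treated WT and 3.02, 1.91 and 3.60 CPM in BRICHOS-treated WT mice. In AppNL-G-F mice it had 0.712, 0.656 and 1.18 CPM with veh and 0.709, 0.0639 and 0.604 CPM with BRICHOS, the latter from 11, 1 and 8 counts. The 4 libraries with the highest Cox8b were the 3 of BRICHOS-treated WT mice and replicate 3 of veh-treated WT mice. These 4 also had the highest Cox6b2 (2.90 to 5.09 CPM) and the highest sums of ependymal and choroid plexus markers, 3102 to 6519 CPM against 611 to 1866 CPM in the other 8 libraries, and the part of those markers in the result was not tested.

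Cox7a1, a muscle form, was at 0.83 ± 0.48 (adjusted p = 0.201) with veh and -1.21 ± 0.456 (adjusted p = 0.051) with BRICHOS, and Cox4i2, a lung form, at 0.22 ± 0.412 (adjusted p = 0.706) and -0.86 ± 0.426 (adjusted p = 0.128). Per kilobase of exon, Cox7a1 made up at most 6.82% of the pair with Cox7a2 in any library, and Cox4i2 at most 2.18% of the pair with Cox4i1. With BRICHOS, 4 of the 5 mural cell markers were called lower and 1 higher in AppNL-G-F mice, against 21.8% and 20.8% of all tested genes. Their median log2 fold change was -1.44, although their sums overlapped (170 to 221 CPM in WT and 179 to 192 CPM in AppNL-G-F mice). The part of mural cell markers in the values of Ndufa4l2, Cox7a1 and Cox4i2 was not tested.

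**Figure D3:**
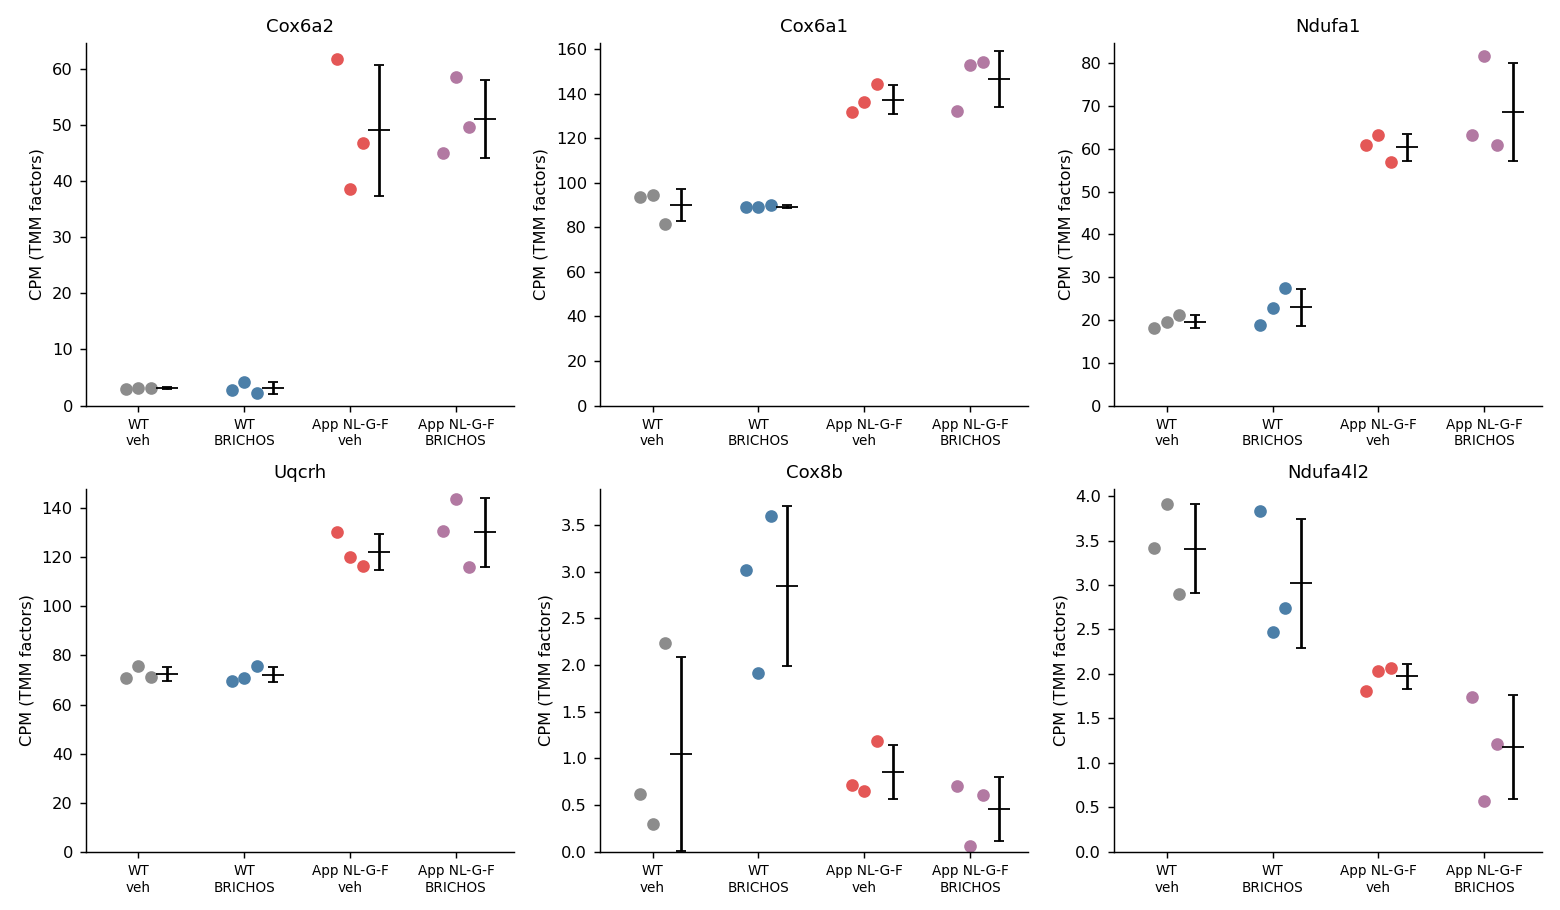
Levels of Cox6a2, Cox6a1, Ndufa1, Uqcrh, Cox8b and Ndufa4l2 in CPM computed with TMM factors, for 3 mice per group (points) with mean and SD (black bars). Cox6a2 lies between 2.29 and 4.28 CPM in WT and between 38.6 and 61.7 CPM in AppNL-G-F mice, whereas Cox8b and Ndufa4l2 reach at most 3.60 and 3.91 CPM.

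In complex V, 14 of 16 members were higher in veh-treated and 12 in BRICHOS-treated AppNL-G-F mice, 12 of them in both, and 0 were lower. The shares higher were 87.5% and 75.0%, against 20.1% and 20.8% of all tested genes, 15.1% in both. The lowest p-values were those of small membrane subunits. Atp5mpl rose by 0.79 ± 0.0757 (adjusted p = 9.54e-06) and 0.65 ± 0.075 (adjusted p = 3.96e-05), Atp5k by 0.85 and 0.59, and Atp5j2 by 0.68 and 0.64. The alpha subunit Atp5a1 and the catalytic beta subunit Atp5b had the highest levels of the complex in CPM. Atp5b had 359, 371 and 371 CPM in veh-treated WT and 479, 493 and 432 CPM in veh-treated AppNL-G-F mice, which did not overlap, and rose by 0.35 ± 0.0565 (adjusted p = 0.000531) with veh and 0.28 ± 0.0565 (adjusted p = 0.00201) with BRICHOS.

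Subunit c of the rotor is encoded by 3 genes, Atp5g1, Atp5g2 and Atp5g3, whose mature products are identical. Atp5g2 had 16.8, 20.8 and 19.5 CPM in veh-treated WT and 36.7, 34.8 and 31.2 CPM in veh-treated AppNL-G-F mice, without overlap. It rose by 0.85 ± 0.123 (adjusted p = 0.00025) with veh and 0.67 ± 0.122 (adjusted p = 0.00105) with BRICHOS. Atp5g3 rose by 0.47 ± 0.0861 (adjusted p = 0.00125) with veh and was at 0.21 ± 0.0855 (adjusted p = 0.0665) with BRICHOS. Atp5g1 was at 0.15 ± 0.143 (adjusted p = 0.443) and 0.02 ± 0.142 (adjusted p = 0.925), and its sign changed with library totals alone. Per kilobase of exon, Atp5g3 was the most abundant of the 3 in every library (53.8% to 62.1%), and Atp5g2 made up 24.9% to 28.0% in WT and 30.0% to 35.3% in AppNL-G-F libraries. The difference between the 3 genes was not tested.

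Promoter windows from RefSeq (GRCm38.p6, 250 bases before to 50 after the start) were available for 65 of the 82 nuclear members and searched on both strands for the core motifs of 3 factors known to act on respiratory genes. GCGCATG, a core of the NRF1 site, was found in 13 windows (20.0%, against 5.57% of the windows of 16513 protein-coding genes), CCGGAAG, an ETS family core that GABP binds, in 16 (24.6% against 13.4%), and AAGATGGC, a YY1 core, in 9 (13.8% against 3.64%). Any of the 3 was found in 30 windows (46.2% against 20.3%). The median log2 fold change was 0.46 with veh and 0.43 with BRICHOS for these 30 genes, and 0.44 and 0.32 for the 35 genes with none. Windows are printed for Cox6a1 and Ndufa1, which both rose, and for Atp5g2 and Atp5g1, the subunit c genes with the largest and the smallest log2 fold change. Letters found by the search are in capitals. They are given 5′ to 3′ along the gene, all on the minus strand, at chr5:115348909-115349208, chrX:37191189-37191488, chr15:102670998-102671297 and chr11:96075582-96075881.
Cox6a1: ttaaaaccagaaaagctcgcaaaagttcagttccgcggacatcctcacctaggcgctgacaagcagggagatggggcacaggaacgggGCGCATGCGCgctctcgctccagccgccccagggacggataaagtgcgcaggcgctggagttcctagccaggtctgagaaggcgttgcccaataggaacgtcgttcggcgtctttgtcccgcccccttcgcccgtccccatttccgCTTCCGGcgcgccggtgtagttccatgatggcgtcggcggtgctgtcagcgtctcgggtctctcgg
Ndufa1: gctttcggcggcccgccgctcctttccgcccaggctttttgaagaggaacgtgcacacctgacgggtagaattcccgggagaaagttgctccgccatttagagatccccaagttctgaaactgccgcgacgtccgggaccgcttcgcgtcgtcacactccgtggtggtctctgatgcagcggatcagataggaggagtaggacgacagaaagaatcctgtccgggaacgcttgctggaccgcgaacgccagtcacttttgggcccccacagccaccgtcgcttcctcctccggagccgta
Atp5g2: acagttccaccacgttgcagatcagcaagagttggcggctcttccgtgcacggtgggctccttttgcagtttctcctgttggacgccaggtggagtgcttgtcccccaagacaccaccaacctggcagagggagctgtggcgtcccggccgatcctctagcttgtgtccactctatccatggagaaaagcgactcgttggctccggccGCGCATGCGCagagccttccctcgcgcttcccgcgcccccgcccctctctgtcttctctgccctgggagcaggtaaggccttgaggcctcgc
Atp5g1: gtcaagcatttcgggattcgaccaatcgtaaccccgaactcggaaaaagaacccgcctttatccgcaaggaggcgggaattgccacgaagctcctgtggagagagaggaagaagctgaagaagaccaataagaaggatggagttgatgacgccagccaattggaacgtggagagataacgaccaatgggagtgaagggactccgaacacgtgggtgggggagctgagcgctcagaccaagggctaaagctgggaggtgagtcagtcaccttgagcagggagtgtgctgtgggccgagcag
The Cox6a1 window held the NRF1 core on both strands, overlapping as a palindrome, and the ETS core on the opposite strand. The Atp5g2 window held the NRF1 core on both strands, and the Ndufa1 and Atp5g1 windows held none of these letters.

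Shorter nuclear members had larger log2 fold changes, as a description across genes that share libraries. Spearman's rho with exon length was -0.34 with veh and -0.29 with BRICHOS over the 82 nuclear members, against -0.10 and -0.12 over 15416 tested genes. The 27 shortest (360 to 1108 bases) had medians of 0.53 and 0.38, where 324 other protein-coding genes of that length had 0.29 and 0.27. The 27 longest (2101 to 8086 bases) had medians of 0.35 and 0.24, where 11901 others had -0.04 and -0.05. Among the 45 nuclear members with no shared window, 32 and 30 were higher (20.1% and 20.8% of all tested genes were), with medians of 0.37 and 0.29.

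Of the mitochondrially encoded members, mt-Nd1, mt-Nd2, mt-Nd3, mt-Nd4 and mt-Cytb were lower in AppNL-G-F mice in both comparisons. mt-Nd1, a core subunit of complex I (chrM:2751-3707, plus strand), had 1959, 2362 and 1976 CPM in veh-treated WT and 1335, 1314 and 1527 CPM in veh-treated AppNL-G-F mice. With BRICHOS it had 2208, 2416 and 2403 CPM in WT and 1464, 1551 and 1370 CPM in AppNL-G-F mice. The strains did not overlap in either comparison, with log2 fold changes of -0.59 ± 0.0903 (adjusted p = 0.000359) and -0.68 ± 0.0903 (adjusted p = 0.000113). mt-Nd2 was similar at -0.62 ± 0.108 (adjusted p = 0.000907) and -0.79 ± 0.108 (adjusted p = 0.000141), and mt-Nd4 was at -0.41 ± 0.0725 (adjusted p = 0.000948) and -0.60 ± 0.0726 (adjusted p = 5.79e-05), although 62.23% of its windows have copies.

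mt-Cytb, the mitochondrially encoded subunit of complex III, was at -0.24 ± 0.0747 (adjusted p = 0.0266) with veh and -0.51 ± 0.0749 (adjusted p = 0.000229) with BRICHOS. The veh value was not past the threshold without replicate 2 of WT mice (adjusted p = 0.0942) or without replicate 2 or 3 of AppNL-G-F mice (adjusted p = 0.1 and 0.0569). mt-Co1, the catalytic subunit of complex IV and the most abundant member, was at -0.18 ± 0.0785 (adjusted p = 0.0998) with veh and lower by -0.33 ± 0.0786 (adjusted p = 0.00577) with BRICHOS. The mt-Co1 value with veh did pass the threshold in the DESeq2 Wald test (-0.17, adjusted p = 0.0366). It also passed in edgeR with library totals alone (-0.365, adjusted p = 0.00299), where the median gene was at -0.21.

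mt-Nd5, a proton-pumping subunit of complex I, had 1201, 1241 and 1316 CPM in veh-treated WT and 1308, 1132 and 1307 CPM in veh-treated AppNL-G-F mice, which overlapped. With BRICHOS it had 1491, 1971 and 1687 CPM in WT and 1318, 1224 and 1113 CPM in AppNL-G-F mice, which did not overlap. Its log2 fold change was -0.00 ± 0.103 (adjusted p = 0.978) with veh and -0.49 ± 0.103 (adjusted p = 0.00258) with BRICHOS. The test of the difference between these 2 values gave -0.49 ± 0.146 (adjusted p = 0.201), not past the threshold.

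The remaining pair had few counts. mt-Nd3 had 6.84, 9.78 and 6.10 CPM in veh-treated WT and 1.36, 2.56 and 2.59 CPM in veh-treated AppNL-G-F mice, from 21 to 165 counts per library, and fell by 1.81 ± 0.298 (adjusted p = 0.000616) on the log2 scale. With BRICHOS it was at -0.89 ± 0.288 (adjusted p = 0.0265), and not past the threshold without replicate 1 of WT mice (adjusted p = 0.0987) or replicate 1 or 3 of AppNL-G-F mice (adjusted p = 0.0659 and 0.0968). mt-Nd6, the mitochondrially encoded member on the minus strand, was at -0.20 ± 0.337 (adjusted p = 0.666) and -0.61 ± 0.334 (adjusted p = 0.168). Whether counting used strand was not given in the sources used here, so reads of mt-Nd6 may not be separate from those of the opposite strand. The ribosomal RNA genes of mitochondrial DNA, which are no members, were lower with veh, mt-Rnr1 by -1.23 ± 0.242 (adjusted p = 0.00213) and mt-Rnr2 by -1.02 ± 0.238 (adjusted p = 0.00587). With BRICHOS they were at -0.63 and -0.53 and not past the threshold.

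**Figure D4:**
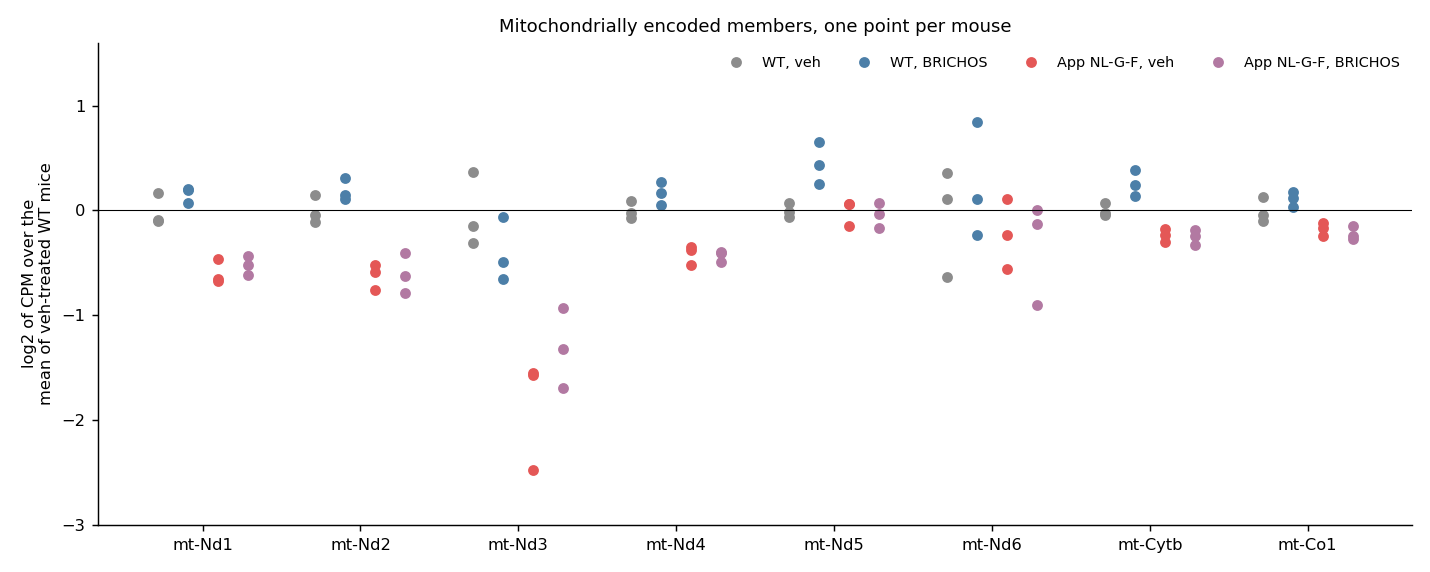
Levels of the 8 mitochondrially encoded members as the log2 of CPM over the mean CPM of veh-treated WT mice, for 3 mice per group (points). CPM were computed with TMM factors. mt-Nd1 and mt-Nd2 separate the strains in both treatments, whereas mt-Nd5 overlaps between strains with veh and lies highest in BRICHOS-treated WT mice (1491 to 1971 CPM before this scaling).

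The effect of BRICHOS was compared with veh within each strain, using the same mice as the strain comparisons. In AppNL-G-F mice, 0 of the 82 nuclear and 0 of the 8 mitochondrial members passed the threshold in the edgeR test, while 1 of all tested genes did (0.00648%), and DESeq2 also called 0 members. At an unadjusted p under 0.05, 1 nuclear member was higher and 0 were lower (against 3.18% and 7.67% of all genes), and without overlap between mice 2 were higher and 2 lower (against 6.37% and 7.09%). The log2 fold change was above 0 for 48 of 82 (58.5% against 52.0% of all genes). The median log2 fold change was 0.03 for the nuclear and -0.01 for the mitochondrial members, with 0.01 for all genes. Leaving out 1 mouse at a time turned the sign of both medians, with ranges of -0.02 to 0.06 and -0.04 to 0.03. The standard errors of the nuclear members had a median of 0.083, so that small changes of single genes were not detectable with 3 mice per group. Cox5a, a complex IV subunit, had the lowest p-value of the nuclear members, with 35.6, 37.9 and 37.3 CPM with veh and 42.3, 49.1 and 40.8 CPM with BRICHOS, and a log2 fold change of 0.25 ± 0.103 (adjusted p = 0.397). Cox6a2 was at 0.06 ± 0.186 (adjusted p = 0.945), Ndufa4l2 at -0.74 ± 0.34 (adjusted p = 0.46), mt-Nd3 at 0.53 ± 0.308 (adjusted p = 0.6) and mt-Nd1 at 0.07 ± 0.09 (adjusted p = 0.838). The astrocyte markers summed to 1394 to 4472 CPM with veh and 649 to 1873 CPM with BRICHOS. Their median log2 fold change was -1.38, with 0 of 7 called. The endothelial markers summed to 395 to 526 CPM and 337 to 388 CPM. The part of these markers in the result was not tested.

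In WT mice, 0 nuclear and 0 mitochondrial members passed the threshold with edgeR, and 0.0% of all genes did. At an unadjusted p under 0.05, 11 nuclear members were higher and 0 lower (13.4% and 0.0%, against 6.55% and 4.83% of all genes), and 3 mitochondrial members were higher. The log2 fold change was above 0 for 70 of 82 nuclear members (85.4%, against 49.1% of all genes), and 18 had all BRICHOS-treated mice above all veh-treated mice and 1 below (22.0% and 1.22%, against 8.36% and 9.19%). The medians were 0.11 for the nuclear members and 0.18 for the mitochondrial members, against -0.00 for all genes, and the mitochondrial median was 0.12 without replicate 2 of BRICHOS-treated WT mice. mt-Nd5 had the lowest p-value, at 0.45 ± 0.103 (adjusted p = 0.214), with every BRICHOS-treated WT mouse above every veh-treated WT mouse. Next were Cox6b2 at 1.19 ± 0.287 (adjusted p = 0.239), mt-Cytb at 0.26 ± 0.0747 (adjusted p = 0.253) and Ndufb11 at 0.24 ± 0.0842 (adjusted p = 0.318). The Wald test of DESeq2 called 2 members, mt-Nd5 (adjusted p = 0.00902) and mt-Cytb (adjusted p = 0.0479). The share of all genes that DESeq2 called is not given here, so these 2 calls cannot be set beside it. The ependymal and choroid plexus markers summed to 818 to 3733 CPM in veh-treated and 3102 to 6519 CPM in BRICHOS-treated WT mice, and the part of this in the result was not tested.

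The test of whether the BRICHOS effect differed between strains called 0 members, and 1 of all genes (0.00648%). The lowest p-values among the members were those of mt-Nd5, given above, Cox7a1 at -2.04 ± 0.662 (adjusted p = 0.219), Cox6b2 at -1.26 ± 0.412 (adjusted p = 0.22), Atp5s at -0.50 ± 0.19 (adjusted p = 0.264) and mt-Cytb at -0.27 ± 0.106 (adjusted p = 0.268). At an unadjusted p under 0.05, 7 nuclear members had a lower effect in AppNL-G-F mice and 0 a higher one (8.54% and 0.0%, against 9.54% and 5.23% of all genes). The nuclear share with a lower effect was thus near that of all genes. Of the 8 mitochondrial members, 2 had a lower and 1 a higher effect. The median difference was -0.08 for the nuclear and -0.18 for the mitochondrial members, with 0.01 for all genes. Leaving out 1 mouse at a time moved these medians to between -0.12 and -0.03 and between -0.24 and -0.11. The nuclear median was weakest without replicate 3 of BRICHOS-treated WT mice (-0.03) and the mitochondrial median without replicate 2 of that group (-0.11).

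**Figure D5:**
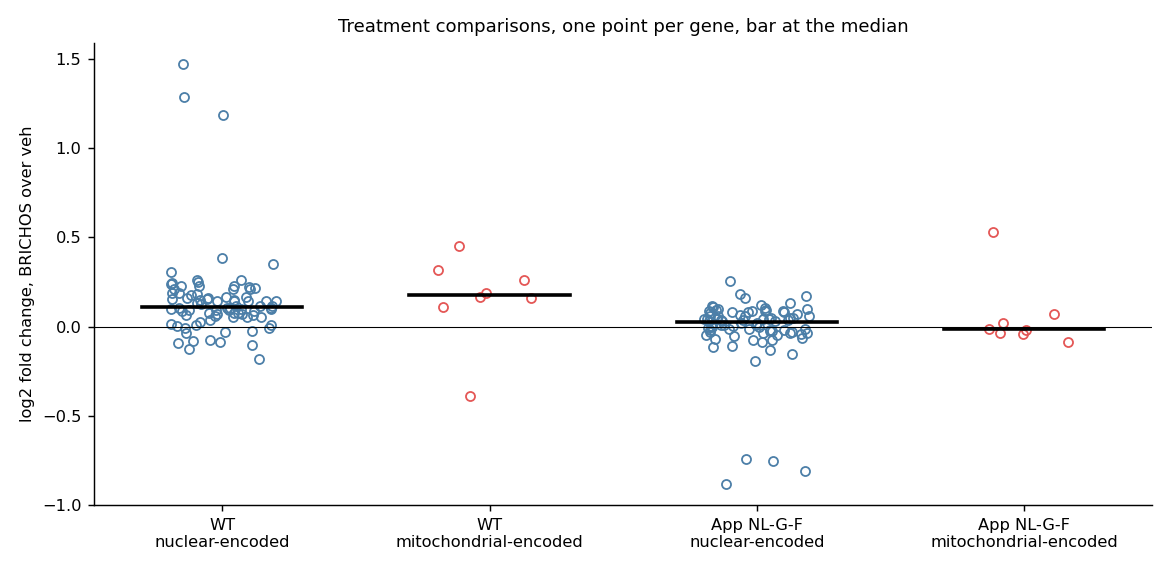
Log2 fold changes of BRICHOS over veh for the members in WT and AppNL-G-F mice, 1 point per gene with bars at the medians, from 3 mice per group. No member passed an adjusted p-value of 0.05 in the edgeR test, and the medians of the nuclear members are 0.11 in WT and 0.03 in AppNL-G-F mice.

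Genes that serve the respiratory chain without being subunits were counted in 6 lists. Of 51 assembly factors tested, 9 were higher and 1 was lower in veh-treated AppNL-G-F mice and 11 were higher and 0 lower with BRICHOS, with medians of 0.09 and 0.13. The shares called higher, 17.6% and 21.6%, were near those of all tested genes (20.1% and 20.8%), and the shares called lower were 1.96% and 0.0%, against 16.9% and 21.8%. Among those higher were Coa5, an assembly factor of complex IV (0.52 and 0.62), and Uqcc3 (0.50 and 0.61) and Uqcc2 (0.43 and 0.57), which act on complex III. The one lower with veh was Sco1, a copper carrier for complex IV, at -0.47 ± 0.169 (adjusted p = 0.0478). Of 77 mitochondrial ribosomal proteins, which translate the mitochondrially encoded subunits, 23 were higher and 1 was lower with veh, and 28 were higher and 1 was lower with BRICHOS, with medians of 0.18 and 0.24. This was 29.9% higher and 1.3% lower with veh, against 20.1% and 16.9% of all tested genes, and 36.4% and 1.3% with BRICHOS, against 20.8% and 21.8%. The lowest p-values were those of Mrpl30 (0.71) and Mrps21 (0.47) with veh and of Mrpl54 (0.74) and Mrpl12 (0.61) with BRICHOS, and those lower were Mrpl3 with veh (-0.25) and Mrps6 with BRICHOS (-0.49). Of 22 subunits of the import machinery, 7 were higher and 0 lower with veh and 9 were higher and 1 was lower with BRICHOS (31.8% and 0.0%, against 20.1% and 16.9% of all tested genes, and 40.9% and 4.55%, against 20.8% and 21.8%). Tomm7 was at 0.85 and 0.67, Tomm22 at 0.37 and 0.45, and Timm21 was lower with BRICHOS (-0.25).

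Of 32 genes for mitochondrial DNA maintenance, transcription and RNA processing, 3 were higher and 2 lower in either comparison. These shares of 9.38% and 6.25% were below those of all tested genes, which were 20.1% and 16.9% with veh and 20.8% and 21.8% with BRICHOS. Slirp, which stabilizes mitochondrial messenger RNA, was higher (0.65 and 0.58), as was Hsd17b10, a subunit of mitochondrial RNase P (0.55 and 0.45). Polrmt, the mitochondrial RNA polymerase, was lower with veh (-0.43 ± 0.0925 (adjusted p = 0.00383)) and at 0.11 ± 0.0918 (adjusted p = 0.376) with BRICHOS. Mgme1, an exonuclease for mitochondrial DNA, was lower with veh (-0.25), and Mterf2 (-2.65) and Fastkd5 (-0.63) were lower with BRICHOS. Tfam, which packages mitochondrial DNA, was at -0.18 ± 0.0704 (adjusted p = 0.0691) and -0.07 ± 0.0702 (adjusted p = 0.459).

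Of 13 nuclear regulators of respiratory genes, 2 were higher and 5 lower with veh and 2 were higher and 2 lower with BRICHOS. The shares were 15.4% and 38.5% with veh, against 20.1% and 16.9% of all tested genes, and 15.4% and 15.4% with BRICHOS, against 20.8% and 21.8%. Those higher were Hif1a, the oxygen-regulated subunit of the hypoxia-inducible factor, at 2.26 ± 0.0601 (adjusted p = 8.75e-10) and 2.50 ± 0.0606 (adjusted p = 5.26e-10), and Nfe2l2, a regulator of antioxidant genes (1.03 and 1.16). Esrra, a nuclear receptor that acts on respiratory genes, was lower (-0.34 and -0.21), as was Gabpb2, a subunit of GABP (-0.20 and -0.24), and with veh Creb1 (-0.25). Nrf1 (-0.21 and 0.00) and Gabpa (-0.04 and 0.01), whose products recognise sequences like those searched for, were not past the threshold.

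Of 19 genes of the TCA cycle and pyruvate dehydrogenase, 7 were higher and 1 was lower with veh and 6 were higher and 2 lower with BRICHOS (36.8% and 5.26%, against 20.1% and 16.9% of all tested genes, and 31.6% and 10.5%, against 20.8% and 21.8%). Mdh2, the mitochondrial malate dehydrogenase, rose by 0.45 and 0.35, Cs, citrate synthase, by 0.53 and 0.38, and Ogdh, of the oxoglutarate dehydrogenase complex, by 0.36 and 0.33. Idh2, the NADP-dependent isocitrate dehydrogenase, was lower at -0.58 ± 0.0864 (adjusted p = 0.000295) and -0.70 ± 0.0865 (adjusted p = 6.64e-05), and Pcx, pyruvate carboxylase, was lower with BRICHOS (-0.44). Among 5 respiratory genes that the symbol rule does not take, 4 were higher with veh and 2 with BRICHOS (80.0% and 40.0%, against 20.1% and 20.8%). Atpif1, the inhibitor of the ATP synthase, was at 0.58 and 0.55, and Usmg5, a subunit of it, at 0.69 and 0.36. Cyc1, cytochrome c1, and Cycs, cytochrome c, were higher with veh (0.24 and 0.31) and not past the threshold with BRICHOS (0.09 and 0.14). Ndufab1, an acyl carrier protein in complex I, was at 0.04 and 0.10. In the treatment comparisons 0 genes of any of these lists were called.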

How the data were processed

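Polyadenylated RNA of CD11b+ cells was sequenced from 12 mice. The deposited values are raw gene counts, which the authors made by trimming with Cutadapt, aligning to GRCm38 with STAR (2.6.1d in the submitters' processing notes) and counting with featureCounts 1.5.1, without normalization. The strand setting and the handling of reads with several matches are not given in the sources used here. Symbols were found for 55227 of 55487 gene IDs, and 26314 genes had no counts. Library totals were between 12433402 and 17889654. Counts were fitted with edgeR 4.0.16 in R 4.3.3 (TMM, filterByExpr with a minimum count of 10, 15425 genes, all 12 libraries with 1 mean per group), which differs from the DESeq2 Wald test of the study, run here as an alternative (DESeq2 1.42.0). All 90 members passed the filter. Comparisons were AppNL-G-F against WT within each treatment, BRICHOS against veh within each strain, and the difference of the latter. P-values were adjusted over all tested genes by Benjamini-Hochberg with a threshold of 0.05. Each library is 1 mouse, and p-values weigh differences between group means against the spread between libraries within groups. This spread was estimated from all 12 libraries together, so both strain comparisons share that estimate.

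By rule, the text names the mitochondrial genes, the 3 called nuclear members with the lowest p in each complex, comparison and direction (without any call, 2 of each genome), the isoform sets, 5 respiratory genes outside the symbol rule, the members nearest the count threshold and 2 called genes per list, comparison and direction. Other names were chosen after their values were seen. The members and lists were chosen with earlier results of these data known. Alternatives covered scaling, filters, the test, the samples in the fit, a replicate block and leaving out each mouse. The values of 1 gene are not reported here. Levels per kilobase used the merged exon length of each gene. The fit was tested on simulated data. Python 3.11.15, pandas 2.3.3 and matplotlib 3.10.9 were used.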

Additional observations from a re-analysis of the deposited data

How the results depend on the processing

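Of 84 results for named genes, 61 kept their direction and side of the threshold under every alternative run, and 11 changed sign under at least 1. With the sign kept, 5 lost and 9 gained the threshold under at least 1 alternative. Sdha and Sdhb with BRICHOS lost the threshold along with a change of sign and are not among these 5. Requiring an absolute log2 fold change of at least 1 left 2 nuclear members with veh and 5 with BRICHOS (2 higher, 3 lower), and 1 and 0 mitochondrial members. The methods of the study also name a log2 fold change of 1 as a cutoff. The share of all genes left by it is not given here, so these counts cannot be set beside it. With library totals alone the strain medians were 0.25 and 0.081 for the nuclear and -0.52 and -0.88 for the mitochondrial members. On that scale 36 nuclear members were called with BRICHOS, against 64 with TMM factors, and the share of all genes called is not given here. There, Sdha (-0.038), Sdhb (-0.0059), Atp5g3 (-0.057) and Atp5g1 (-0.25) with BRICHOS and Ndufa4 (-0.061) and Atp5g1 (-0.043) with veh changed sign. The cause of these shifts was not tested beyond the scaling itself. With DESeq2, 2 mitochondrial members were called for BRICHOS in WT mice, and the share of all genes it called is not given here.

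The log2 ratio of the strains' nuclear share of counts was 0.26 with veh and 0.13 with BRICHOS. It was 0.45 and 0.40 from CPM with TMM factors and 0.43 and 0.36 as the median over members. The mitochondrial log2 ratio was -0.47 and -0.76, it was -0.29 and -0.49 with TMM factors, and the median over members was -0.59 with BRICHOS. The log2 change of the mitochondrial to nuclear ratio was -0.73 and -0.89, and -1.02 with BRICHOS without mt-Co1, mt-Cytb and mt-Nd1.

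Leaving out each mouse gave 60 to 68 nuclear members called with veh and 56 to 65 with BRICHOS, and 4 to 5 and 6 to 7 mitochondrial members. It changed the sign of Ndufa4 (range -0.139 to 0.036) and Atp5g1 (-0.078 to 0.104) with BRICHOS and of mt-Nd6 (-0.44 to 0.017), Cox4i2 (-0.0006 to 0.46), Cox8b (-0.74 to 0.90) and mt-Nd5 (-0.039 to 0.062) with veh. A minimum of 10 counts in every library turned Atp5g1 to -0.013 with BRICHOS. Replicate numbers were not taken as pairs, since same-numbered mice of the compared groups had correlations of deviations between -0.01 and 0.23. With the replicate block 66 nuclear members were called with veh and 66 with BRICHOS (62 higher, 4 lower), 5 and 7 mitochondrial members, and 0 in the treatment comparisons, and Cox7a1 passed the threshold with BRICHOS (-1.19, adjusted p = 0.0386). The shares of all genes called with the replicate block or without a mouse are not given here. A level of 3 counts corresponds to 0.168 to 0.241 CPM by library totals, and differences near it were not detectable at this depth.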
